A study of Homo sapiens with 9 samples.

Results

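The genes described here encode the translocases of the outer (TOMM) and inner (TIMM) mitochondrial membrane, and they were taken by symbol. The set was chosen with earlier results of these data known. The rule took every symbol that starts with TOMM and a number, or with TIMM, optional letters and a number. It found 27 of the 20379 genes in the table, 10 TOMM and 17 TIMM. The name rule also takes in TOMM34, a cytosolic cochaperone, TIMMDC1, an assembly factor of respiratory complex I, and TIMM23B-AGAP6, a readthrough locus. The cells were HCCLM3, an established human hepatocellular carcinoma line. They received a non-targeting control siRNA, an siRNA against UXS1 or an siRNA against MRPL42, with 3 libraries of polyadenylated RNA per group. UXS1 makes UDP-xylose from UDP-glucuronate, and MRPL42 is a protein of the mitochondrial ribosome. The letters a, b and c name libraries as the table does and pair nothing across groups.

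Nearly all mitochondrial proteins are made in the cytosol and cross the outer membrane through the TOM complex. Receptors catch the precursors, TOMM40 forms the channel, and small subunits hold the complex together. Behind it, small TIM proteins escort hydrophobic precursors across the intermembrane space, TIM22 inserts carrier proteins into the inner membrane, and TIM23 takes presequence proteins across or into it.

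Library totals lay between 15265959 and 22400560 estimated counts. Levels are given as CPM, counts scaled by library totals adjusted by TMM, a scaling that limits the weight of a few abundant genes. Neither target passed the test in the libraries labelled for it. UXS1 had a log2 fold change of -0.17 ± 0.09 (SE) after UXS1 siRNA, with an edgeR adjusted p of 0.348. MRPL42 had one of -0.39 ± 0.14 (SE) after MRPL42 siRNA, with an edgeR adjusted p of 0.185. Leaving out control library c gave -0.08 ± 0.06 and -0.24 ± 0.11 (SE), with edgeR adjusted p of 0.519 and 0.252, so groups are named here by the siRNA on their label. Control library c correlated with the other libraries at 0.953 to 0.964, and the other pairs at 0.984 to 0.994, so results are also given without it. Separate cultures are not stated for the libraries of any group. The p-values therefore describe the spread between libraries, and this may be technical. The 10 hepatocyte markers summed to 5668 to 8262 CPM, of which the keratins KRT8 and KRT18 made up 98.0% to 98.7%. Without them the sum was 109 to 130 CPM, with APOA1, APOA2 and TTR under 0.5 CPM in every library. In control library c albumin (ALB) was at 3.61 CPM and HNF4A at 111 CPM, beside 12.0 to 14.4 and 52.8 to 57.8 in the other libraries. Summed leukocyte markers lay at 0.489 to 1.09 CPM. Summed fibroblast markers lay at 18.4 to 26.0 CPM and endothelial markers at 19.99 to 38.8 CPM, with CDH5 at 0 in every library. DCN made up most of the fibroblast sum and PECAM1 most of the endothelial sum in every library. The lowest DCN value was 17.7 CPM, and the highest value of COL1A1, COL1A2 or COL3A1 was 1.29 CPM. The lowest PECAM1 value was 19.3 CPM, and the highest VWF value was 0.742 CPM.

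Of the 4 short motifs searched, the ETS core stood out in the promoters of the import genes, given here as counts with no test. The other motifs were in 3 windows each, and the E-box share lay near that of tested genes. RefSeq windows of 300 bases (GRCh38.p14, 250 before to 50 after the start) were found for 25 of the 27 genes, and TOMM5 and TIMM8B had none. The core of ETS-family sites, CCGGAAG on either strand, was present in 13 of the 25 windows (52.0%), against 10.3% of all 35116 windows and 19.6% of 10202 windows of tested genes. TIMM23B and TIMM23B-AGAP6 share 1 window, so the 13 are not all independent. The NRF1 core GCGCATGC was present in 3 windows (12.0%, against 3.05% of all and 5.55% of tested-gene windows), the YY1 core ATGGCGGC in 3 (12.0%, against 3.0% and 6.39%) and the E-box CACGTG in 3 (12.0%, against 7.26% and 10.2%). The median GC content was 64.7% in the import windows and 58.7% in all windows, and no comparison matched for it was made.

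Stretches that lie before the start and in no annotated exon are shown, 5′ to 3′ on the gene's strand, for holders of the ETS core and for TOMM7, which holds the NRF1 core. Capitals mark motif matches. The coordinates are chr3:119498412-119498531 (plus strand) for TIMMDC1, chr10:45972329-45972448 (plus) for TIMM23, chr10:49941999-49942032 (plus) for its paralog TIMM23B and chr7:22822853-22822972 (minus) for TOMM7.
TIMMDC1: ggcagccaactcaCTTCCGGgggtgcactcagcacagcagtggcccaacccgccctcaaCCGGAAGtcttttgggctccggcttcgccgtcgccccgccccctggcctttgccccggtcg
TIMM23: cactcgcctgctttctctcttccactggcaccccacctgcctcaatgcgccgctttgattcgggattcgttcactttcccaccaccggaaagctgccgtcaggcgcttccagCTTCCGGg
TIMM23B: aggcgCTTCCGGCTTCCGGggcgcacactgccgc
TOMM7: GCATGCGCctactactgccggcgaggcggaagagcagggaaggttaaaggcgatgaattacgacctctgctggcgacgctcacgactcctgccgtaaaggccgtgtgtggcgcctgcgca
TIMM23B has a pair of adjoining cores on the minus strand, and this stretch of TIMM23 has 1. The cores did not sort the genes by direction. The 13 genes with an ETS core had a median log2 fold change of 0.06 after UXS1 siRNA and 0.09 after MRPL42 siRNA, against 0.14 and 0.18 for the 11 tested genes without one. TOMM6, with values above the controls, and TOMM70, with values below them, both hold it. A match is a stretch of letters and not a measured binding site.

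TOMM20L, a paralog of the receptor TOMM20, had no count in any library. The other 26 genes passed the filter on low counts. Levels of different genes were compared per length, as counts per kilobase of transcript, scaled to the same sum in every library. In control siRNA the small subunit TOMM5 stood highest, at 378 ± 11.3 (SD, n = 3). Of its 75-base windows, 65.9% also occur in the overlapping same-strand genes AL138752.2 and AL513165.2, so its count is uncertain. The channel TOMM40 came next at 198 ± 14.7 (SD, n = 3). These and TOMM6, which followed at 149 ± 2.21 (SD, n = 3), did not overlap between libraries. TIMM10 at 145 ± 23.7 and TOMM20 at 139 ± 10.7 (SD, n = 3) overlapped with TOMM6. TIMM17B at 120 ± 12.4 led the TIM23 genes, and TIMM23 at 106 ± 5.19 overlapped with the receptor TOMM70 at 104 ± 5.43 (SD, n = 3). The lowest mean level of a tested gene was that of TOMM40L, the TOMM40 paralog, at 10.9 ± 0.149 (SD, n = 3). The readthrough TIMM23B-AGAP6 at 12.8 ± 4.35 (SD, n = 3) overlapped with it.

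**Figure D1:**
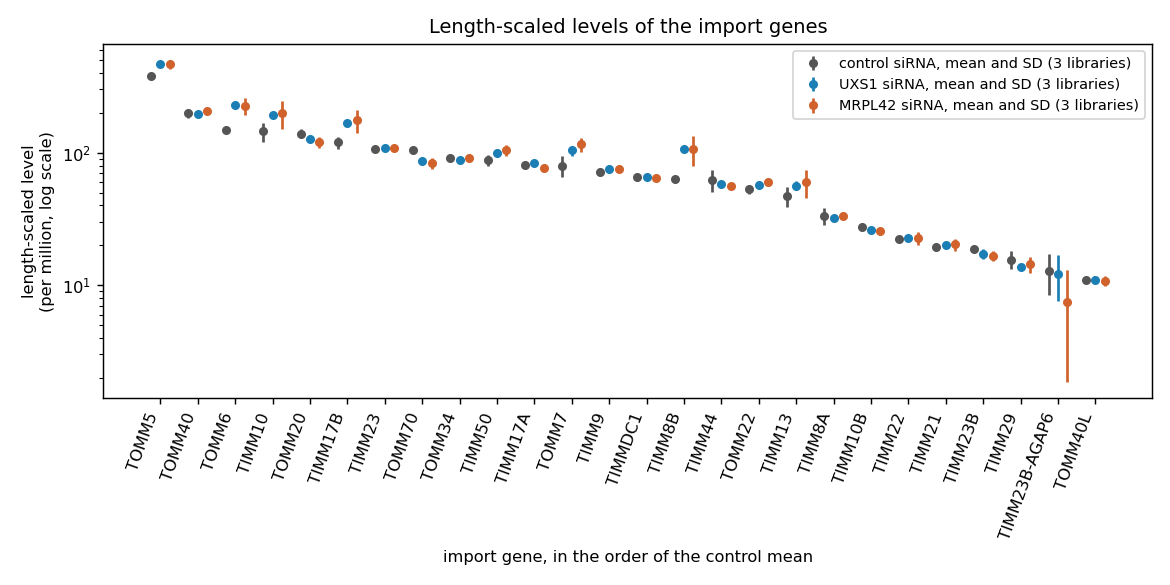
Length-scaled levels (counts per kilobase scaled to the same sum per library, log axis) of the 26 tested import genes, in the order of the control mean. Points are means and bars SD over 3 libraries, and TOMM5 stands highest in every group.

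After UXS1 siRNA most import genes had slightly higher values, led by TIMM8B, TOMM6, TIMM17B, TIMM10 and TOMM7, but none passed the edgeR test at an adjusted p of 0.05 (0 of 26, where 0.0158% of all tested genes passed). The log2 fold change was above 0 for 20 of 26, with a median of 0.13 beside 0.00 for all tested genes. Of the 26, 10 had an unadjusted p below 0.05 (38.5%, against 17.8% of all). In both comparisons with control, genes with short transcripts had such a p more often, as given further on. All UXS1 siRNA libraries lay above all controls for 11 genes (42.3%, against 15.3%) and below them for 1, TOMM70 (3.85%, against 10.9%). DESeq2 called 4 (TIMM17B, TIMM8B, TOMM5 and TOMM6, against 3.63% of all genes) and limma-voom 0 (against 0.0158%). Without control library c, edgeR called 1, TOMM6 (against 1.58%), and 6 had an unadjusted p below 0.05 (23.1%, against 19.2%).

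MRPL42 siRNA gave values of the same order of size, and again none of 26 passed the edgeR test (against 0% of all genes). The median was 0.15 beside -0.01 for all tested genes, and 21 of 26 were above 0. An unadjusted p below 0.05 was found for 15 (57.7%, against 20.2%). All MRPL42 siRNA libraries lay above all controls for 12 genes (46.2%, against 11%) and below them for TOMM70 alone (against 10.5%). DESeq2 called 5 (the 4 above and TOMM7, against 5.35%) and limma-voom 0 (against 0%). Without control library c, edgeR called TOMM6 only (against 1.33%), and 11 had an unadjusted p below 0.05 (42.3%, against 19.6%). Without MRPL42 library b edgeR called 8 in this comparison (against 6.33% of all genes), and 4 after UXS1 siRNA (against 2.78%). With both of these libraries left out it called 9 (against 14.6%), and 6 after UXS1 siRNA (against 9.47%). With only the 6 libraries compared it called 0 (against 0%), and 4 after UXS1 siRNA (against 2.02%). Both comparisons use the same control libraries, so their values are not independent.

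**Figure D2:**
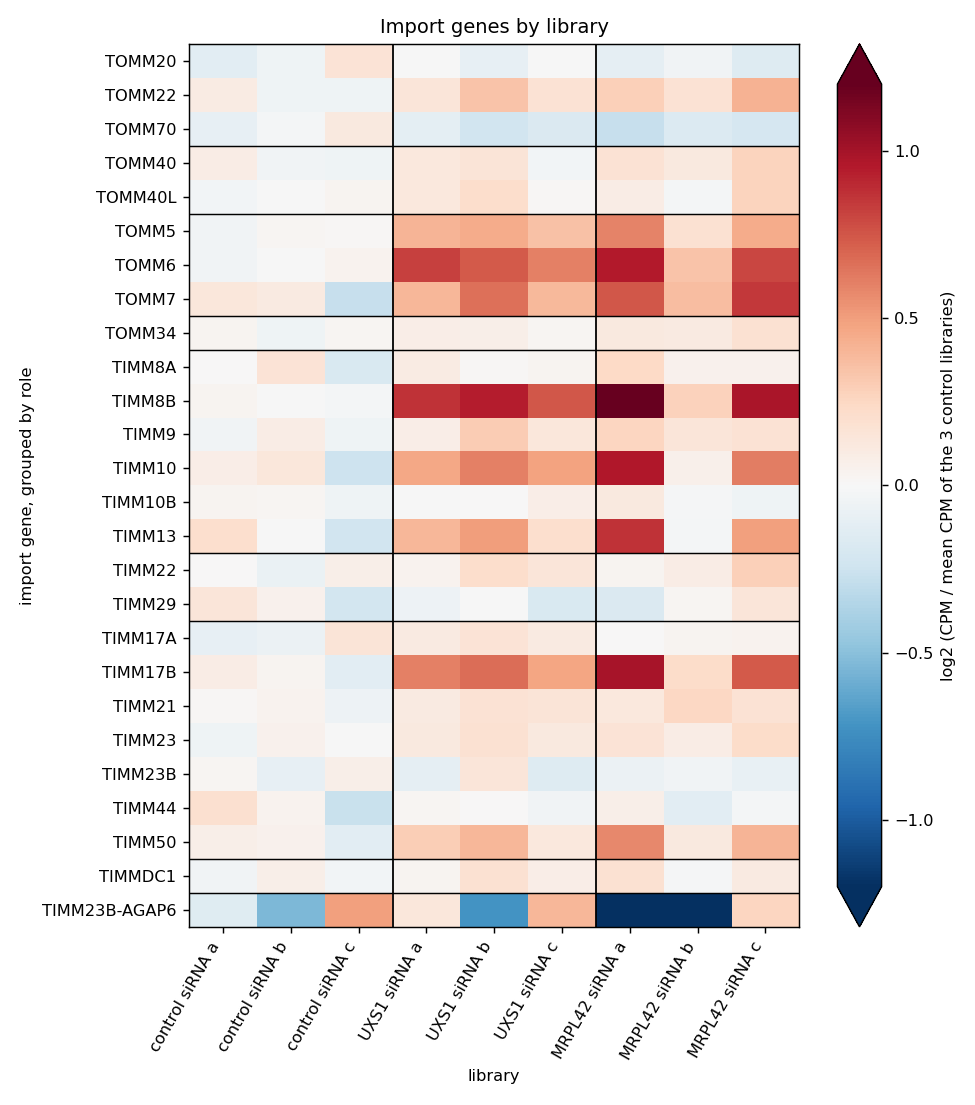
Log2 ratio of CPM to the mean of the 3 control libraries for the 26 tested import genes (rows, by role) in each library (columns). Red is higher and blue lower, colours stop at the ends of the scale, and MRPL42 library b is paler than libraries a and c for TOMM6, TIMM8B, TIMM10 and TIMM17B.

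The TOMM and TIMM genes had similar medians. The 9 tested TOMM genes had a median log2 fold change of 0.12 after UXS1 siRNA and 0.19 after MRPL42 siRNA, and the 17 TIMM genes had 0.14 in both. Within each of these 2 sets the small proteins stood highest. Medians were 0.49 and 0.67 for the 3 small TOM subunits and 0.27 and 0.34 for the 6 small TIM chaperones. With the offsets for transcript length described further on, the small TOM subunits had medians of 0.07 and 0.15. The small TIM chaperones then had -0.02 and -0.01, beside 0.02 and -0.06 for the TIM23 genes and -0.04 and 0.01 for TIM22. The order among the TIMM groups was thus not kept. With control library c also left out, the small TOM subunits had medians of 0.02 and 0.16. The receptors then had 0.08 and 0.02, and TOMM40 with TOMM40L 0.07 and 0.12. The small TOM subunits were thus no longer the highest TOMM group after UXS1 siRNA.

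Among the receptors the values went in both directions. TOMM20, which binds presequences, was at 186, 197 and 228 CPM in control libraries a to c, at 203, 191 and 203 after UXS1 siRNA and at 190, 197 and 183 after MRPL42 siRNA. The groups overlapped, with control c the highest library, and the log2 fold changes were -0.03 ± 0.08 and -0.10 ± 0.08 (SE). TOMM22, the central receptor that also organises the complex, was at 49.7, 44.8 and 44.9 CPM in control, at 51.3, 58.8 and 52.4 after UXS1 siRNA and at 56.6, 52.6 and 62.0 after MRPL42 siRNA. Every targeting siRNA library lay above every control, by 0.22 ± 0.09 and 0.30 ± 0.09 (log2, SE), with edgeR adjusted p of 0.236 and 0.141. TOMM70, the receptor for carrier precursors, ranged from 185 to 216 CPM in control, 170 to 183 after UXS1 siRNA and 165 to 178 after MRPL42 siRNA. Its log2 fold changes were -0.17 ± 0.07 and -0.21 ± 0.07 (SE), with edgeR adjusted p of 0.262 and 0.166. Leaving out control library c, the highest library for TOMM70, gave -0.12 and -0.15. The length offsets described further on gave -0.11 and -0.14, and both changes together gave -0.07 and -0.09.

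TOMM40, the channel, was at 155, 142 and 140 CPM in control, at 159, 162 and 142 after UXS1 siRNA and at 164, 158 and 175 after MRPL42 siRNA. The UXS1 siRNA libraries overlapped the controls and the MRPL42 siRNA libraries did not, with log2 fold changes of 0.09 ± 0.07 and 0.19 ± 0.07 (SE). Of 75-base windows in its transcripts, 12.2% also occur at other loci. TOMM34 was at 82.3, 77.5 and 81.9 CPM in control, at 85.3, 84.7 and 81.7 after UXS1 siRNA and at 87.3, 87.1 and 91.5 after MRPL42 siRNA. Its MRPL42 siRNA libraries lay just above the other 6, with a log2 fold change against control of 0.14 ± 0.06 (SE).

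All 3 small TOM subunits, single-span proteins around the channel, were higher in every targeting siRNA library than in any control. TOMM6, which stabilises the complex, was at 38.4, 39.5 and 40.7 CPM in control, at 69.6, 65.9 and 60.01 after UXS1 siRNA and at 76.5, 50.2 and 68.7 after MRPL42 siRNA. The gap to the controls was wide, and MRPL42 library b lay nearest to them. The log2 fold change was 0.72 ± 0.14 (SE) in both comparisons, with edgeR adjusted p of 0.137 and 0.132. Without control library c TOMM6 rose by 0.73 ± 0.14 and 0.74 ± 0.15 (log2, SE), with edgeR adjusted p of 0.0354 and 0.0393. Over all alternatives the adjusted p lay between 0.000222 and 0.470 after UXS1 siRNA and between 6.97e-05 and 0.437 after MRPL42 siRNA. Both lower ends came from edgeR with control library c and MRPL42 library b left out together, a setting chosen after seeing the data.

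TOMM6 reads cannot be assigned to it alone. All 75-base windows of its transcripts also occur in the overlapping gene AL365205.1 on the same strand, listed in the table by identifier only (chromosome 6, 41787662 to 41789898 for TOMM6). AL365205.1 had log2 fold changes of 0.51 ± 0.15 and 0.49 ± 0.15 (SE), with edgeR adjusted p of 0.175 and 0.143.

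TOMM5, which helps assemble the channel, was at 119, 125 and 124 CPM in control, at 163, 167 and 156 after UXS1 siRNA and at 185, 139 and 167 after MRPL42 siRNA. Again MRPL42 library b was the nearest to the controls. The log2 fold changes were 0.40 ± 0.10 and 0.42 ± 0.10 (SE), with edgeR adjusted p of 0.171 and 0.135. TOMM7, which regulates the stability of the complex and of PINK1 at its surface, ranged from 22.0 to 29.4 CPM in control, 34.9 to 42.2 after UXS1 siRNA and 34.5 to 48.2 after MRPL42 siRNA, with log2 fold changes of 0.49 ± 0.15 and 0.67 ± 0.15 (SE).

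All 6 small TIM chaperones of the intermembrane space had log2 fold changes above 0 in both comparisons, from 0.03 to 0.85 and from 0.02 to 0.88. Leaving out control library c put 4 above 0 and 2 below after UXS1 siRNA, and 5 and 1 after MRPL42 siRNA. With length offsets, 3 were above and 3 below in both. TIMM8B, a close relative of TIMM8A in this family, was at 22.5, 22.0 and 21.6 CPM in control, at 40.2, 42.4 and 36.9 after UXS1 siRNA and at 51.6, 26.8 and 43.6 after MRPL42 siRNA. No targeting siRNA library overlapped the controls, and MRPL42 library b was again closest. The log2 fold changes were 0.85 ± 0.20 and 0.88 ± 0.20 (SE), the highest of the import genes, with edgeR adjusted p of 0.171 and 0.135. Of its 75-base windows, 35.6% also occur in NKAPD1 on the opposite strand, whose log2 fold changes were -0.17 and -0.10. Strandedness is not stated in the sources at hand, and without strand those reads cannot be told apart.

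TIMM10, which forms the other ring with TIMM9, was at 34.9, 36.3 and 27.8 CPM in control, at 45.6, 50.2 and 46.1 after UXS1 siRNA and at 64.1, 34.4 and 50.5 after MRPL42 siRNA. MRPL42 library b lay inside the control range, while the UXS1 siRNA libraries lay above it. The log2 fold changes were 0.52 ± 0.20 and 0.59 ± 0.20 (SE), with edgeR adjusted p of 0.227 and 0.161. TIMM13, 22.3% of whose 75-base windows also occur in overlapping genes, had log2 fold changes of 0.37 and 0.49, TIMM9 0.18 and 0.19, TIMM8A, the gene of deafness-dystonia syndrome, 0.05 and 0.11, and TIMM10B, which docks the ring at TIM22, 0.03 and 0.02.

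TIMM22, the pore of the carrier translocase, was at 30.8, 28.9 and 32.0 CPM in control, at 31.4, 35.5 and 33.8 after UXS1 siRNA and at 31.3, 32.6 and 37.2 after MRPL42 siRNA. The groups overlapped, with log2 fold changes of 0.14 ± 0.09 in both comparisons (SE). Its partner TIMM29 had -0.08 and 0.00.

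In the TIM23 group, TIMM17B had larger values than its paralog TIMM17A. TIMM17B, a structural part of the presequence translocase, was at 52.1, 50.1 and 44.8 CPM in control, at 74.5, 78.0 and 68.2 after UXS1 siRNA and at 97.5, 57.2 and 81.7 after MRPL42 siRNA. All targeting siRNA libraries were above all controls, and MRPL42 library b was the nearest. The log2 fold changes were 0.59 ± 0.17 and 0.69 ± 0.17 (SE), with edgeR adjusted p of 0.174 and 0.135. TIMM17A had log2 fold changes of 0.13 and 0.03. It had 0.20 ± 0.06 and 0.11 ± 0.06 (SE) without control library c, with edgeR adjusted p of 0.121 and 0.336. With length offsets as well, TIMM17B had 0.24 and 0.31, and TIMM17A 0.13 and 0.03. The difference between the paralogs was not tested.

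TIMM50, the receptor of the TIM23 complex, had 0.28 and 0.38, TIMM21, which links TOM to TIM23, 0.15 and 0.18, and the channel protein TIMM23 0.14 and 0.16. Each of these had all targeting siRNA libraries above all controls. TIMM44, which tethers the import motor, had -0.01 and -0.03, and TIMM23B -0.03 and -0.07.

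TIMMDC1 was at 65.7, 71.0 and 66.3 CPM in control, at 69.2, 76.9 and 71.3 after UXS1 siRNA and at 76.6, 66.9 and 73.2 after MRPL42 siRNA, and all groups overlapped. Of its 75-base windows, 31.2% also occur in CD80 on the opposite strand, and without strand those reads cannot be told apart. The readthrough TIMM23B-AGAP6 was at 2.79, 2.12 and 4.35 CPM in control, at 3.38, 1.88 and 4.08 after UXS1 siRNA and at 1.23, 0.970 and 3.70 after MRPL42 siRNA. Its libraries spread widely inside every group. Of its 75-base windows, 44.9% also occur at other loci, so its counts are uncertain.

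**Figure D3:**
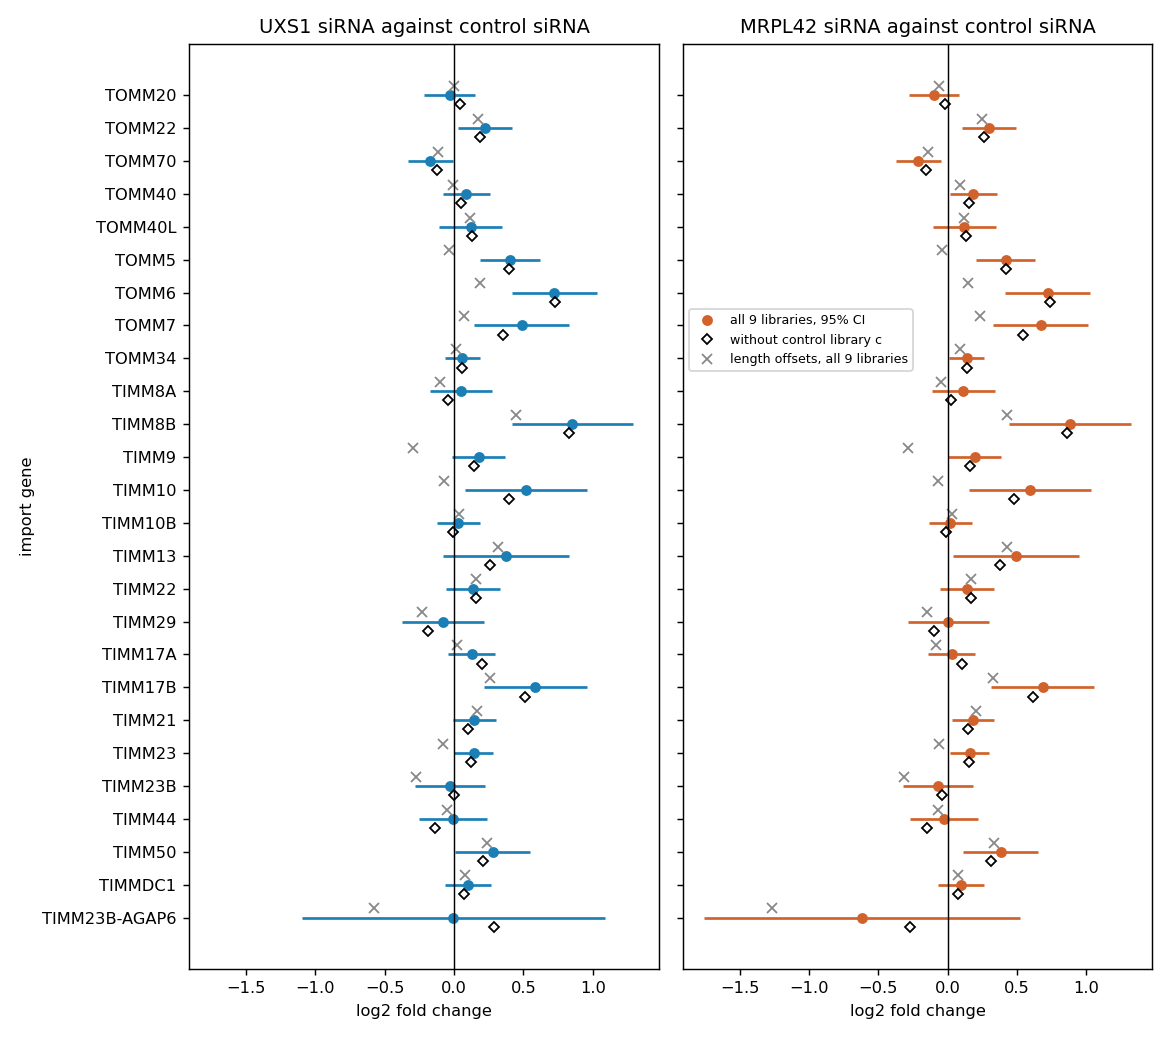
Log2 fold change of each tested import gene against control siRNA, with filled points and 95% confidence intervals from all 9 libraries, open diamonds without control library c and crosses with length offsets. TIMM8B and TOMM6 lie farthest to the right, and the crosses of the short genes TOMM5 and TIMM10 lie near 0.

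The import genes with higher values were mostly those with short transcripts. The 8 tested import genes under 1000 bases had medians of 0.50 and 0.63, and the 18 longer ones 0.09 and 0.12. All 733 tested genes under 1000 bases had medians of 0.41 and 0.43, and all 11840 longer ones -0.02 and -0.02. The longer import genes ran from 1142 to 4409 bases, so the 11840 are not matched to them by length. In 20 length bins of all tested genes, medians were 0.23 and 0.24 in the bin centred on 1113 bases. They were 0.04 and 0.03 in that on 2028 bases, and -0.07 and -0.08 in that on 4426.5 bases. After UXS1 siRNA 6 of the 8 short import genes were higher with an unadjusted edgeR p below 0.05, and 0 lower. After MRPL42 siRNA 7 were higher and 0 lower. Of the 733 short genes, 403 were higher and 10 lower, then 431 and 9. Of the 18 longer import genes, 3 were higher and 1 lower, then 7 and 1. Of the 11840 longer genes, 905 were higher and 920 lower, then 1002 and 1108. Across the 26 import genes the log2 fold change and log2 transcript length had a Pearson r of -0.59 after UXS1 siRNA and -0.39 after MRPL42 siRNA, as a description of genes that share libraries.

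**Figure D4:**
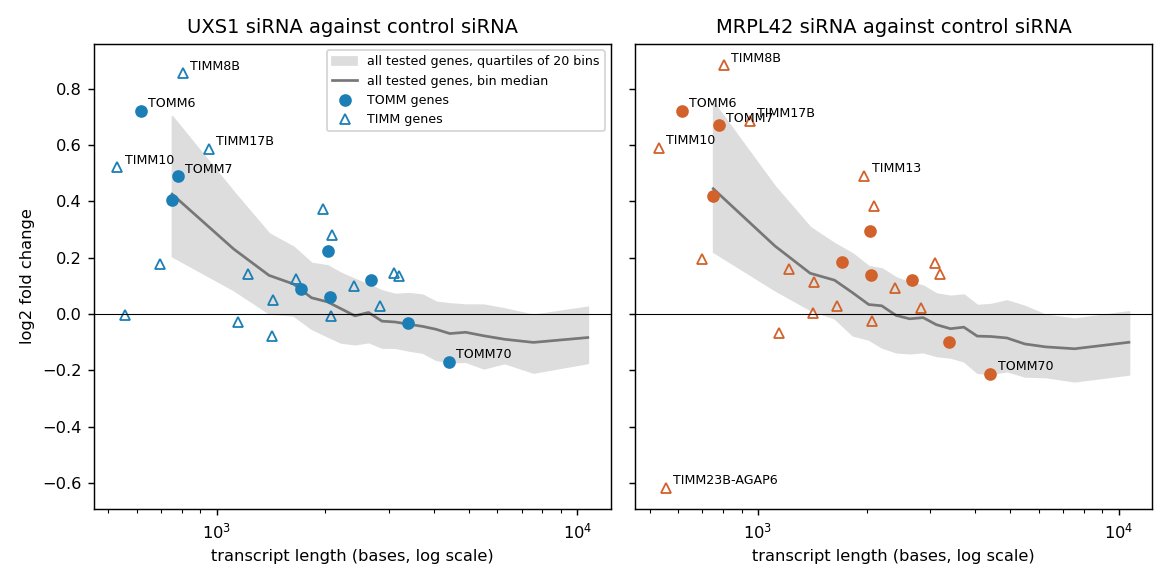
Log2 fold change against control siRNA by transcript length (log axis), with the TOMM and TIMM genes as points over the bin medians (line) and quartiles (band) of all tested genes in 20 bins. The short import genes sit high where the median of all short genes is high too.

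Offsets for transcript length were fitted in each library over all tested genes, so they also remove any group difference shared by genes of one length. All tested genes under 1000 bases then had medians of -0.01 and -0.01. With these offsets the median of all import genes was 0.02 after UXS1 siRNA and 0.05 after MRPL42 siRNA. For the 18 longer import genes it was also 0.02 and 0.05. Here edgeR called 0 of 26 (against 0.0632% and 0.0158% of all genes). TOMM6 then had 0.19 and 0.15, TOMM5 -0.04 and -0.04, TIMM10 -0.07 and -0.07, TIMM9 -0.30 and -0.28, and TIMM8B 0.45 and 0.43. With the offsets and without control library c, TIMM8B was the 1 import gene called (against 2.49% of all genes after UXS1 siRNA and 2.25% after MRPL42 siRNA), at 0.48 and 0.47, with edgeR adjusted p of 0.0374 and 0.0443. Over all alternatives its adjusted p lay between 0.000283 and 0.470 after UXS1 siRNA and between 6.90e-05 and 0.437 after MRPL42 siRNA. As for TOMM6, both lower ends came from edgeR with control library c and MRPL42 library b left out together.

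The length pattern was also seen library by library. Relative to each gene's mean over the 9 libraries, the short import genes had medians of -0.29, -0.26 and -0.48 in control, 0.17, 0.26 and 0.11 after UXS1 siRNA and 0.42, -0.16 and 0.33 after MRPL42 siRNA (log2). The 725 other short genes had -0.22, -0.25 and -0.38, then 0.15, 0.22 and 0.04, then 0.39, -0.15 and 0.22. MRPL42 library b lay below 0 with the controls in both sets. What sets the length pattern was not tested. As a general limit of bulk RNA, apart from length, fewer cells and less RNA per cell cannot be told apart.

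**Figure D5:**
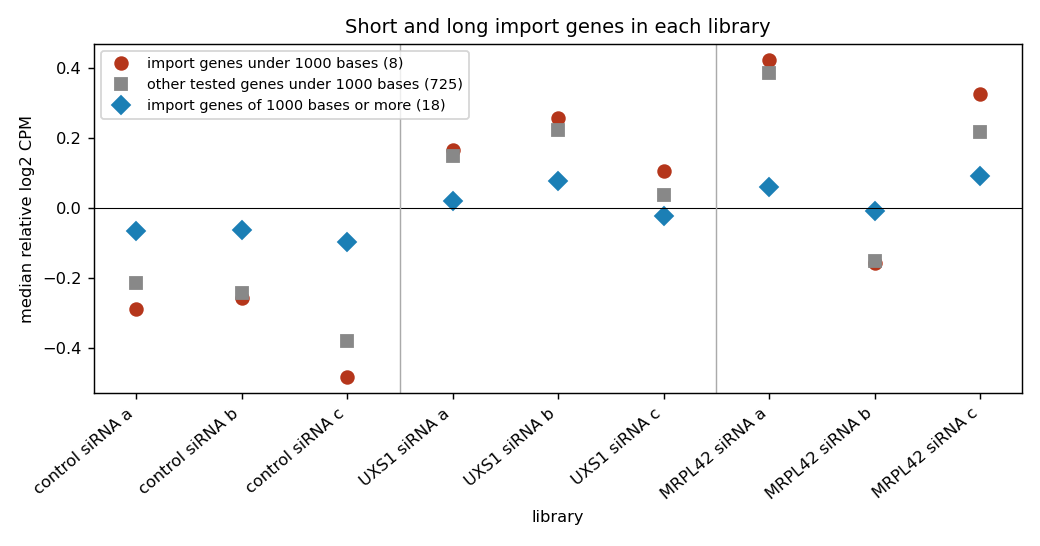
Median relative log2 CPM in each library for the 8 short import genes, the 725 other tested genes under 1000 bases and the 18 longer import genes. The short import genes follow the other short genes, and the longer import genes stay between -0.10 and 0.09.

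The UXS1 siRNA and MRPL42 siRNA libraries were also compared with each other, a contrast that does not use the control means. No import gene passed the test of UXS1 siRNA against MRPL42 siRNA. edgeR called 0 of 26 (against 0% of all genes), and 0 had an unadjusted p below 0.05 (against 1.72%). DESeq2 and limma-voom also called 0 (against 0% and 0%), as did edgeR without control library c (0%, with 0 unadjusted against 5.35%). TIMM17A was higher in every UXS1 siRNA library (1 of 26, against 5.79% of all), and TOMM34 lower (1 of 26, against 4.31%). Apart from TIMM23B-AGAP6 at 0.61 (95% interval -0.53 to 1.76), the log2 differences lay between -0.18 and 0.10. The interval was within 0.5 on either side of 0 for 22 of the 26 genes, and for TOMM7 it ran from -0.52 to 0.16.

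Other parts of the import pathway, listed as 25 genes of the import motor, oxidative folding, outer membrane assembly and precursor processing, had medians of 0.02 in both comparisons against control. None passed the edgeR test with all libraries. An unadjusted p below 0.05 was found for 7 higher and 2 lower genes after UXS1 siRNA (against 17.8% of all genes) and for 6 and 3 after MRPL42 siRNA (against 20.2%). HSPE1, the cochaperonin of the matrix folding machine, had log2 fold changes of 0.41 and 0.42, with edgeR adjusted p of 0.145 and 0.132. HSPA9, the motor's Hsp70, had -0.25 and -0.23, and GRPEL2, a nucleotide exchange factor for it, -0.21 and -0.40. The highest of the 25, named after their values were seen, were PAM16, ROMO1 and GFER. PAM16, a regulator of the motor with a transcript of 540 bases, had 1.00 and 1.13, with edgeR adjusted p of 0.174 and 0.135. ROMO1, at 459 bases, had 0.94 and 1.14, with edgeR adjusted p of 0.210 and 0.141. GFER, the sulfhydryl oxidase of oxidative folding, had 0.61 and 0.71, with edgeR adjusted p of 0.174 and 0.135. Without control library c edgeR called HSPE1 up and HSPA9 down in both comparisons, DNAJC15 up after UXS1 siRNA and GRPEL2 down after MRPL42 siRNA, 3 of the 25 in each (against 1.58% and 1.33% of all genes).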

How the data were processed

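Per the labels' protocols, polyadenylated RNA was captured on beads, fragmented and made into libraries amplified by PCR. The submitters' processing notes name the build hg38 and the tools HISAT2, Bowtie2, fastp and edgeR, and their versions and roles, the annotation and the counting are not stated there. Values in the deposited table are estimated counts made by the authors, of which 83.6% to 84.9% above 0 were whole. The estimates were rounded to whole numbers for the count tests. The 9 TPM columns were left out. Column names alone gave the groups, and the columns of the UXS1 siRNA group are spelled USX1 and were read as UXS1.

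Genes were filtered with filterByExpr, scaled by TMM and fitted with edgeR 4.0.16 (quasi-likelihood, two-sided, 1 mean per group over 9 libraries) in R 4.3.3. Benjamini-Hochberg adjustment was over 12657 tested genes, with a threshold of 0.05. DESeq2 1.42.0 and limma 3.58.1 (voom) were alternatives, and an adjusted p that DESeq2 gave as NA was not a call. The test was tested on simulated data. Transcript lengths and coordinates came from GENCODE 29 (GRCh38), in which all 27 genes were found, and length offsets from lowess (span 0.3). No molecular identifiers are named in the labels, and PCR copies are not independent molecules.

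The members and gene lists were chosen with earlier results of these data known. Every library is printed for genes called with 9 libraries or without control library c, and for the gene with the smallest p and the gene with the highest length-scaled control level in each role group. AL365205.1 and NKAPD1 were named after their values were seen.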

Additional observations from a re-analysis of the deposited data

How the results depend on the processing

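No paired analysis was possible because the columns carry letters that no label ties to the repeat numbers, so no replicate block was run. The number of import genes called after UXS1 siRNA was 0 with edgeR and all libraries (where 0.0158% of all genes were called). It was 4 with DESeq2 (3.63%), 4 with only the 6 libraries compared (2.02%) and 1 with length offsets and control library c left out (2.49%). It was 6 with control library c and MRPL42 library b both left out (9.47%). That last setting was chosen after seeing the data. After MRPL42 siRNA these counts were 0 (0%), 5 (5.35%), 0 (0%), 1 (2.25%) and 9 (14.6%). Leaving out each library in turn gave 0 to 4 after UXS1 siRNA and 0 to 8 after MRPL42 siRNA. The counts above 0 came without control library c (1 in each, where 1.58% and 1.33% of all genes were called) and without MRPL42 library b (4 and 8, where 2.78% and 6.33% were). limma-voom, no filter on low counts, totals without TMM and length offsets alone gave 0. Between the UXS1 siRNA and MRPL42 siRNA libraries every alternative gave 0. The cause of the differences was not tested.

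Some log2 fold changes of the 26 tested genes changed sign. After UXS1 siRNA, length offsets gave -0.073 for TIMM10, -0.077 for TIMM23, -0.10 for TIMM8A, -0.30 for TIMM9, -0.0064 for TOMM40 and -0.035 for TOMM5. With control library c also left out, the offsets gave -0.14 for TIMM10, -0.041 for TIMM23, -0.16 for TIMM8A, -0.27 for TIMM9, 0.079 for TOMM20, -0.0067 for TOMM40 and -0.0071 for TOMM7. With both libraries left out, TIMM10B was at -0.012, TIMM23B at 0.00017, TIMM23B-AGAP6 at 0.28, TIMM8A at -0.046 and TOMM20 at 0.041. TIMM23B-AGAP6 was at 0.010 without TMM, and TIMM44 at 0.0068 with limma-voom. Leaving out 1 library gave -0.011 to 0.045 for TIMM10B, -0.14 to 0.029 for TIMM23B, -0.24 to 0.29 for TIMM23B-AGAP6, -0.14 to 0.10 for TIMM44, -0.046 to 0.14 for TIMM8A and -0.094 to 0.041 for TOMM20.

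After MRPL42 siRNA, length offsets gave -0.068 for TIMM10, -0.083 for TIMM17A, -0.062 for TIMM23, -0.15 for TIMM29, -0.045 for TIMM8A, -0.28 for TIMM9 and -0.042 for TOMM5. Without control library c as well, they gave -0.12 for TIMM10, -0.026 for TIMM23, -0.22 for TIMM29, -0.099 for TIMM8A, -0.26 for TIMM9 and 0.021 for TOMM20. With both libraries left out, TIMM10B was at -0.00080, TIMM23B-AGAP6 at 0.042 and TIMM29 at -0.11, and TIMM29 was at -0.0057 without TMM. Leaving out 1 library gave -0.034 to 0.053 for TIMM10B, -0.019 to 0.11 for TIMM17A, -0.099 to 0.083 for TIMM29 and -0.15 to 0.082 for TIMM44.

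Between the 2 targeting siRNAs, leaving out 1 library gave -0.28 to 0.15 for TIMM10, -0.035 to 0.052 for TIMM10B, -0.32 to 0.11 for TIMM13, -0.28 to 0.075 for TIMM17B, -0.064 to 0.063 for TIMM22, -0.055 to 0.0025 for TIMM23 and -0.076 to 0.097 for TIMM23B. It gave -0.030 to 0.061 for TIMM44, -0.25 to 0.17 for TIMM8B, -0.10 to 0.028 for TIMM9, -0.052 to 0.043 for TIMMDC1, -0.064 to 0.073 for TOMM40L, -0.12 to 0.076 for TOMM5 and -0.15 to 0.12 for TOMM6. TIMM22 was at 0.0038 and TOMM40L at 0.0097 without TMM. With limma-voom TIMM8B was at 0.021 and TOMM40L at 0.0027, and TOMM40L was at 0.00033 with no filter. Length offsets gave 0.017 for TIMM8B and 0.0070 for TOMM5, and 0.0099 and 0.0051 without control library c. DESeq2 gave -0.0018 for TIMMDC1 and -0.0079 for TOMM6. With only the 6 libraries compared TIMM10B was at -0.0015, TIMMDC1 at -0.0039 and TOMM6 at -0.010. With both libraries left out TIMM10B was at -0.011, TIMM44 at -0.034, TIMMDC1 at -0.049 and TOMM6 at -0.16. The other log2 fold changes of the 26 genes kept their direction under every alternative. Counted per gene, comparison and alternative, 44 values passed the threshold where the value from all libraries had not, all of them against control. Some of these 44 belong to genes that changed sign under another alternative, such as TIMM10 and TOMM5. The interval of TIMM23B-AGAP6 was the widest.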
